A study of Mus musculus with 6 samples.

Results

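The transforming growth factor beta (TGF-beta) pathway was followed in the mouse retina through 9 genes chosen by name: the ligands Tgfb1, Tgfb2 and Tgfb3, the receptors Tgfbr1, Tgfbr2 and Tgfbr3, the signal transducers Smad2 and Smad3, and the secreted target protein Tgfbi. All 9 are among the 32285 genes of the deposited table, and all passed the minimum total count of 10 that left 20021 genes for testing. In the oxygen-induced retinopathy (OIR) model, C57BL/6J wt pups were kept in 75% O2 from PN8 (PN, postnatal day) for 5 days, which closes the central capillaries, and new vessels grow after the return to room air at PN13. Afterwards, 1 group lived under chronic intermittent hypoxia (OIR-CIH), a model of sleep apnea in which the cage went through 266 cycles of 135 s in 10 h of each day, each falling from 20.95% to 5% O2 and back. The comparison group, OIR-Norm, had the same flow of gas without a fall in O2. Both groups had OIR, so these libraries compare retinas with and without CIH that are already ischemic, and retinas without OIR were not analysed here. In the paper whole cages were assigned to the groups at random. The cage of each library is not given, so differences between cages were not tested. Retinal RNA was taken at PN18 from 3 eyes per group and sequenced as 1 library each.

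TGF-beta ligands are secreted in a latent form, wrapped in their own propeptide and tied to the matrix, and must be released before they can signal. The active ligand binds TGFBR2, which recruits and phosphorylates TGFBR1, and TGFBR1 phosphorylates SMAD2 and SMAD3. These join SMAD4 and enter the nucleus to regulate target genes, many of them coding for matrix proteins. In the retina the pathway is known for its part in contacts between endothelial cells and pericytes and in keeping microglia in their resting state.

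The libraries held 26289905 to 38010151 counts, and rod markers summed to 52897 to 68881 CPM (counts scaled to a common library total). OIR-Norm replicate 2 stood apart from the other 5 on the first principal component, and its summed lens markers reached 556 CPM against 23.5 to 83.7 CPM elsewhere. RNA of the female-specific Xist and of Y-linked genes was present together in all 6 libraries. The amounts were unequal (Xist 9197 counts in OIR-Norm 1 and 47119 in OIR-Norm 2), and sex was not part of any fit. How many animals each library holds is thus not known, and n is a number of libraries. The p-values therefore measure the spread between libraries. Across all genes, edgeR's quasi-likelihood test with Benjamini-Hochberg adjustment called 63 genes, for which the adjusted p was under 0.05 and the log2 fold change above 0.5 or below -0.5, 43 lower and 20 higher in OIR-CIH. That is 0.315% of the genes tested. None of the 9 TGF-beta genes was among them, and DESeq2, limma and limma-voom called 0 of the 9 as well. Before adjustment, 1 of the 9 (Tgfbr2) had a p under 0.05, beside 13.2% of all genes tested. This count was 3 without OIR-CIH 3 (Tgfbr2, Tgfbr3 and Tgfbi) and without OIR-Norm 3 (Tgfb1, Tgfbr2 and Tgfbi), and 0 without OIR-CIH 1, OIR-CIH 2 or OIR-Norm 2. In 1 of the 9 (Smad2) the 2 groups did not overlap, as was so for 18.4% of all genes. The log2 fold change (OIR-CIH minus OIR-Norm) lay below 0 for 8 members and above 0 for 1, with a median of -0.09 beside 0.00 over all genes tested.

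Among the ligands, Tgfb2 (ENSMUSG00000039239, chromosome 1), known as the main isoform of the eye, had the highest level per kilobase of exon of the 9. In CPM it was 118, 109 and 125 CPM in OIR-CIH replicates 1, 2 and 3, and 122, 135 and 99.5 CPM in the OIR-Norm replicates in the same order. The OIR-CIH values lay wholly inside the OIR-Norm range. The means were 117 ± 7.59 and 119 ± 17.8 CPM (SD, n = 3 each), a log2 fold change of -0.02 with a 95% interval of -0.24 to 0.20 and an adjusted p of 0.960.

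Tgfb3 (ENSMUSG00000021253, chromosome 12), the isoform best known from palate development, measured 19.4, 18.3 and 24.3 CPM under CIH and 19.7, 24.2 and 20.7 CPM in OIR-Norm. The groups overlapped almost completely, with a log2 fold change of -0.06 (interval -0.32 to 0.21, adjusted p = 0.884).

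Tgfb1 (ENSMUSG00000002603, chromosome 7), the isoform most closely tied to immune cells and platelets, was weakly expressed, with 88 to 176 counts per library. It reached 3.45, 3.33 and 4.66 CPM in OIR-CIH and 5.16, 5.30 and 3.17 CPM in OIR-Norm. OIR-Norm 3 was the lowest of all 6 libraries and OIR-CIH 3 the highest of its group, so the ranges crossed. Its log2 fold change was -0.24 (interval -0.71 to 0.22, adjusted p = 0.671). As a percentage of the OIR-Norm level this interval ran from -38.7% to 16.7%, whereas that of Tgfb2 ran from -15.1% to 15.1%.

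Levels per kilobase of exon allow an approximate comparison of different genes. They used the merged length of all annotated exons of a gene (5042 bases for Tgfb1), and the length of the transcripts present was not measured. On this scale Tgfb2 supplied 71.8% to 76.0% of the summed ligand level in the 6 libraries, Tgfb3 20.9% to 25.6% and Tgfb1 2.56% to 3.68%. The within-library log2 ratio of Tgfb1 to Tgfb2 was 0.22 lower in OIR-CIH (means -4.96 and -4.73, exact permutation test, two-sided, p = 0.2, adjusted p = 0.4 over 4 ratios). That of Tgfb3 to Tgfb2 differed by -0.06 (exact p = 0.7, adjusted p = 0.7). With 3 libraries against 3, this exact test cannot go below p = 0.1.

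**Figure D1:**
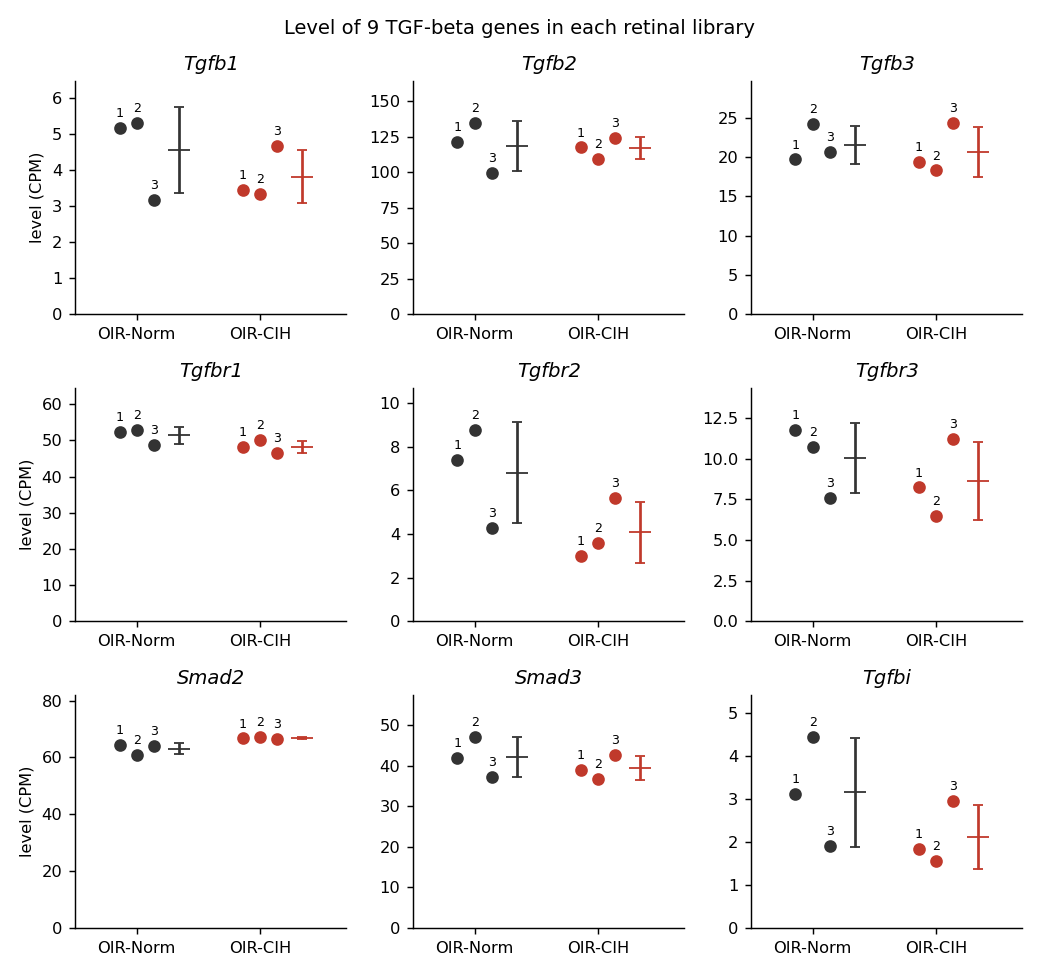
Level of the 9 genes in CPM (vertical axes, each from 0) in the OIR-Norm (dark) and OIR-CIH (red) libraries, numbered by replicate, with the mean and SD of each group (n = 3) at the right of its points. The 2 groups overlap in every panel but that of Smad2, and OIR-Norm 3 lies within the OIR-CIH range of Tgfbr2, Tgfbr3 and Tgfbi and under that of Tgfb1.

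Of the receptors, Tgfbr2 (ENSMUSG00000032440, chromosome 9), which binds the ligand and starts the signal, had the lowest p of the 9 genes. Its level was 2.98, 3.57 and 5.66 CPM in OIR-CIH and 7.40, 8.77 and 4.27 CPM in OIR-Norm, from 76 to 250 counts per library. The pair of highest values came from OIR-Norm and the pair of lowest from OIR-CIH, but OIR-Norm 3 lay under OIR-CIH 3. The means were 4.07 ± 1.41 and 6.81 ± 2.31 CPM (SD, n = 3 each), a log2 fold change of -0.72 (SE 0.27, interval -1.30 to -0.14). The unadjusted p of edgeR was 0.0189 and the adjusted p 0.299, rank 1259 of 20021, so that the difference did not pass the threshold. DESeq2 gave an adjusted p of 0.133. Without OIR-Norm 2 the log2 fold change was -0.50 (adjusted p = 0.636), and without OIR-CIH 3 it was -1.05 (adjusted p = 0.233).

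Tgfbr1 (ENSMUSG00000007613, chromosome 4), the kinase that TGFBR2 activates, had a mean level of 7.62 CPM per kb of exon against 0.665 CPM per kb for Tgfbr2. It measured 48.1, 50.0 and 46.6 CPM in OIR-CIH and 52.4, 52.9 and 48.8 CPM in OIR-Norm. Only OIR-CIH 2 and OIR-Norm 3 crossed between the groups. On the log2 scale the fold change was -0.09 (interval -0.25 to 0.07, adjusted p = 0.639). Within each library, the log2 ratio of Tgfbr1 to Tgfbr2 was 4.01, 3.81 and 3.04 in OIR-CIH and 2.82, 2.59 and 3.51 in OIR-Norm. The mean difference was 0.64 (exact permutation test, two-sided, p = 0.2, adjusted p = 0.4), and the groups overlapped, with OIR-Norm 3 above OIR-CIH 3. This exact permutation test cannot go below p = 0.1 at 3 libraries against 3, so it cannot decide at 0.05 whether the ratio differs.

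Tgfbr3 (ENSMUSG00000029287, chromosome 5), or betaglycan, is a co-receptor that presents ligand, above all TGF-beta 2, to the signaling receptors. It measured 8.24, 6.48 and 11.2 CPM under CIH and 11.8, 10.7 and 7.60 CPM in OIR-Norm. As with Tgfbr2, OIR-CIH 3 was the highest and OIR-Norm 3 the lowest of its group. The log2 fold change was -0.21 (interval -0.65 to 0.23, adjusted p = 0.707).

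The levels of the transducers varied by 3.71% (Smad2) and 9.58% (Smad3) over the 6 libraries (SD over mean). Smad2 (ENSMUSG00000024563, chromosome 18) measured 66.7, 67.3 and 66.5 CPM in OIR-CIH and 64.4, 60.8 and 64.1 CPM in OIR-Norm. All 3 OIR-CIH values lay above all 3 OIR-Norm values, by a small margin. The means were 66.8 ± 0.429 and 63.1 ± 2.0 CPM (SD, n = 3 each), a log2 fold change of 0.08 (interval -0.06 to 0.23) with an adjusted p of 0.637, which did not pass. Smad3 (ENSMUSG00000032402, chromosome 9), which unlike the common form of SMAD2 binds DNA directly, measured 39.0, 36.8 and 42.6 CPM in OIR-CIH and 41.9, 47.2 and 37.4 CPM in OIR-Norm. The groups overlapped, with a log2 fold change of -0.09 (interval -0.30 to 0.12, adjusted p = 0.727). The log2 ratio of Smad3 to Smad2 was lower by a mean of 0.17 in OIR-CIH, at -0.76 ± 0.116 against -0.59 ± 0.209 (SD, n = 3 each, exact p = 0.3, adjusted p = 0.4).

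Tgfbi (ENSMUSG00000035493, chromosome 13) codes for a secreted matrix protein and was named for its induction by TGF-beta. It was the least counted of the 9, with 45 to 127 counts per library. Its level was 1.84, 1.56 and 2.96 CPM in OIR-CIH and 3.12, 4.46 and 1.92 CPM in OIR-Norm. OIR-Norm 2 was the highest library and OIR-Norm 3 fell between OIR-CIH 1 and OIR-CIH 3. The log2 fold change was -0.55 (SE 0.30, interval -1.21 to 0.11, adjusted p = 0.473), and -0.22 (adjusted p = 0.874) without OIR-Norm 2.

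**Figure D2:**
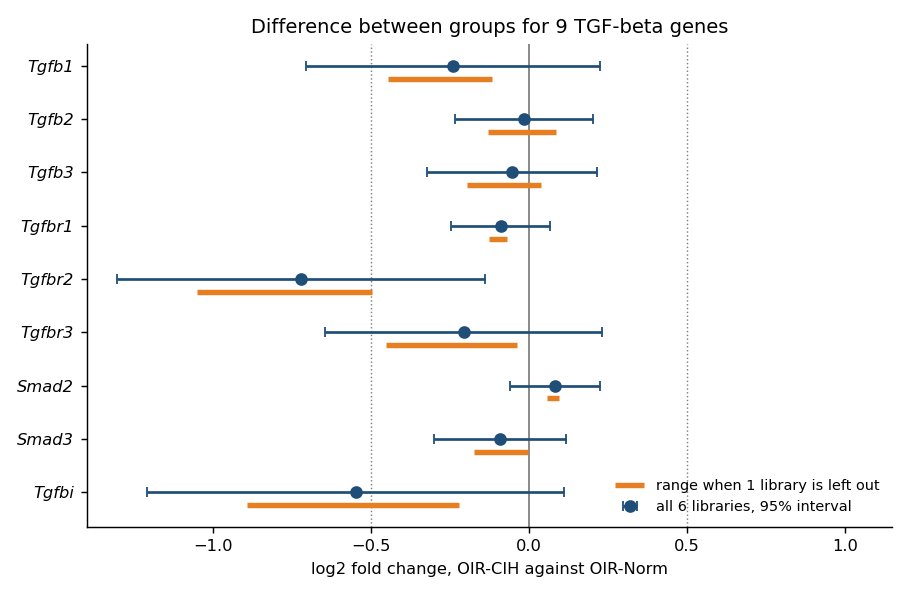
Log2 fold change of OIR-CIH against OIR-Norm (horizontal axis) for each gene from edgeR, with its 95% interval (blue, n = 3 libraries per group) and the range of the estimates when each library in turn was left out (orange). The dotted lines mark the minimum of 0.5 in either direction. The intervals of Tgfb2, Tgfb3, Tgfbr1, Smad2 and Smad3 lie between the dotted lines, and that of Tgfbr2 alone leaves out 0 before adjustment.

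For 5 of the 9 genes, Tgfb2, Tgfb3, Tgfbr1, Smad2 and Smad3, the 95% interval stayed inside a log2 fold change of 0.5 in either direction. For Tgfb1, Tgfbr2, Tgfbr3 and Tgfbi it reached beyond, so that a change of that size was not excluded by the interval at this depth and spread. When each library was left out in turn, none of the 9 was called in any of the 6 fits. The range of the estimates was narrow for Smad2 (0.06 to 0.09) and Tgfbr1 (-0.13 to -0.07) and wide for Tgfbr2 (-1.05 to -0.50) and Tgfbi (-0.89 to -0.22). Tgfbr3 ran from -0.45 without OIR-CIH 3 to -0.04 without OIR-CIH 2 and Tgfb1 from -0.45 without OIR-Norm 3 to -0.12 without OIR-Norm 2, with adjusted p of at least 0.436 and 0.339.

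Ordered by the mean level per kilobase of exon over the 6 libraries, Tgfb2 led with 20.4 CPM per kb. Tgfbr1 (7.62), Smad2 (7.40), Smad3 (7.36) and Tgfb3 (6.24 CPM per kb) formed a middle group, and Tgfbr3 (1.43), Tgfb1 (0.829), Tgfbi (0.701) and Tgfbr2 (0.665 CPM per kb) a low one. Between neighbors in this order, the ranges over the 6 libraries were separate only from Tgfb2 to Tgfbr1 and from Tgfb3 to Tgfbr3. Within the middle and the low group the ranges of neighbors overlapped. Compared inside each library, Smad3 exceeded Tgfb3 and Tgfbr3 exceeded Tgfb1 in 6 of 6, and Tgfb1 exceeded Tgfbi in 5 of 6. The order of Tgfbr1, Smad2 and Smad3 changed from library to library, and Tgfbi exceeded Tgfbr2 in 3 of 6.

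**Figure D3:**
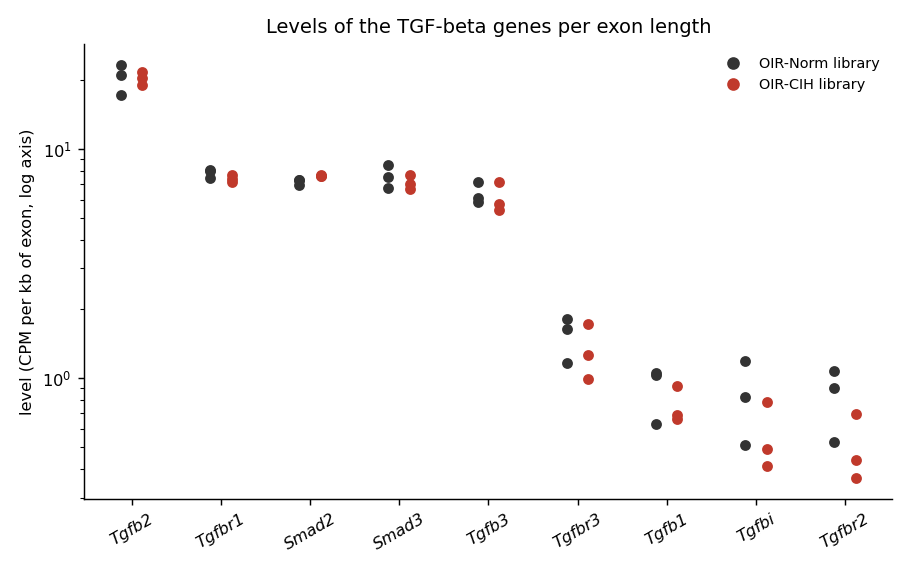
Level of each gene in CPM per kilobase of exon (vertical axis, logarithmic) in the 3 OIR-Norm (dark) and 3 OIR-CIH (red) libraries, in the order of the mean over all 6. Tgfb2 stands above the rest at 20.4 CPM per kb on average, and the 4 genes at the right lie between 0.364 and 1.80 CPM per kb with the widest relative spread.

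Most members shared the highest or the lowest library of a group, though not the full order. The share of all genes with these positions was not counted. In OIR-Norm, 7 of the 9 were lowest in replicate 3 and 7 highest in replicate 2, and in OIR-CIH 7 of the 9 were highest in replicate 3. Summed mural cell and endothelial markers were likewise highest in OIR-Norm 2, lowest of OIR-Norm in replicate 3 and highest of OIR-CIH in replicate 3. Within OIR-CIH these sums were lowest in replicate 1, but Tgfb1 and Tgfbi were lowest in replicate 2. Mural cell markers (10 genes, among them Pdgfrb and Rgs5 of pericytes) summed to 91.9, 108 and 140 CPM in OIR-CIH and 157, 243 and 99.6 CPM in OIR-Norm. Rgs5 alone made up most of each sum, with 57.0, 73.6 and 96.5 CPM and 107, 166 and 72.5 CPM. Endothelial markers (10 genes) summed to 226, 230 and 259 CPM in OIR-CIH and 242, 290 and 224 CPM in OIR-Norm. Most of this was Kdr, at a log2 fold change of -0.01. With Kdr left out (9 genes) they summed to 54.9, 64.8 and 80.3 CPM and to 72.8, 115 and 51.0 CPM. Fibroblast and vessel wall markers ranged from 99.5 to 146 CPM in OIR-CIH and from 146 to 213 CPM in OIR-Norm. Fbln1 was the largest part of that sum (means 59.3 and 98.5 CPM), and Pdgfra is also on the retinal astrocyte list. On the fibroblast list 8 genes were below 0 and 2 above. The levels of Dcn (means 0.483 and 0.654 CPM), Lum (0.0669 and 0.142 CPM) and Dpt (0.0992 and 0.0539 CPM) were very low. Microglia and macrophage markers ranged from 126 to 141 CPM and from 158 to 177 CPM. Retinal astrocyte markers (7 genes, 5 below 0 and 2 above) summed to 484 to 519 CPM in OIR-CIH and 576 to 614 CPM in OIR-Norm without overlap. Much of that difference lay in the filament gene Gfap (means 63.8 and 142 CPM), which was called lower (log2 fold change -1.15, named after its value was seen). Slc1a3, the largest part of the sum, and Aqp4 are also on the Müller glia list. In each of these lists the highest library was OIR-Norm 2, as it was for Tgfbr2, Tgfbi and Tgfb1, and the highest OIR-CIH library was replicate 3. The sum of 10 pigment epithelium markers lay the other way with some overlap, at 850 to 1071 CPM in OIR-CIH and 624 to 869 CPM in OIR-Norm. Of these genes 6 were above 0 and 4 below, and edgeR called 0. At an unadjusted p under 0.05, 5 were higher and 1, Pmel, lower. Rlbp1, also on the Müller glia list, was the largest part of the sum (means 519 and 410 CPM). The part of these cell types in the differences of Tgfbr2, Tgfbi and Tgfb1 was not tested. In bulk RNA, fewer cells of a type and less RNA per cell cannot be told apart.

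**Figure D4:**
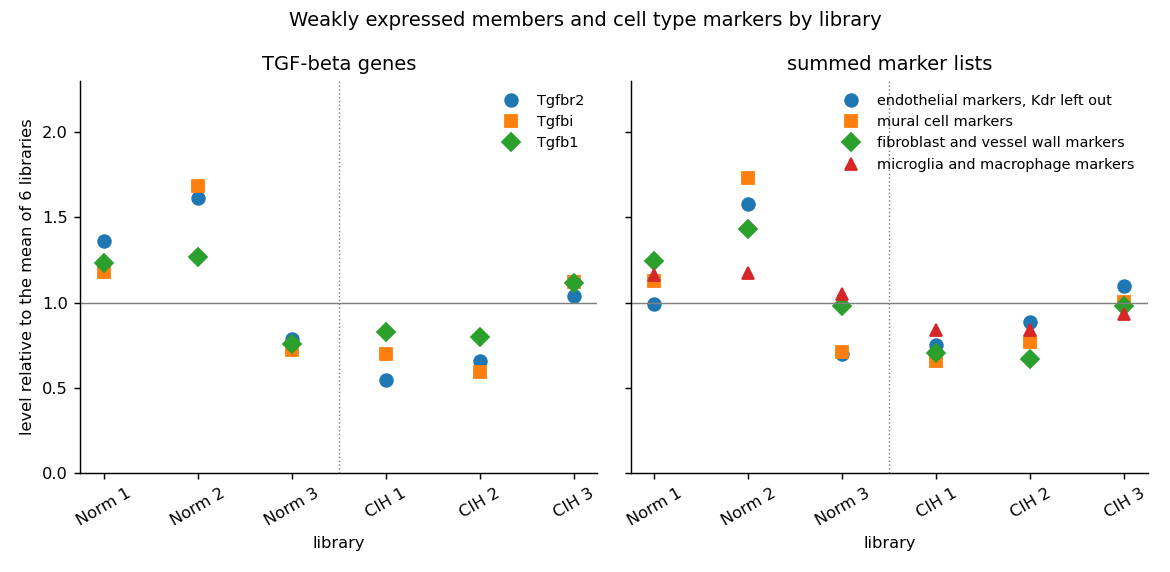
Levels relative to the mean of the 6 libraries (vertical axis, from 0) for Tgfbr2, Tgfbi and Tgfb1 (left) and for 4 summed marker lists (right) in each library. OIR-Norm 2 is highest for all 7 series, though for microglia and macrophage markers it is nearly level with OIR-Norm 1 (1.17 and 1.16). OIR-Norm 3 lies at 0.785, 0.725 and 0.759 for Tgfbr2, Tgfbi and Tgfb1.

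The genes whose course over the 6 libraries was closest to that of Tgfbr2 were looked up among 12058 genes with a mean of at least 5 CPM, by the root mean square difference of centered log2(CPM + 0.5) values. Olfml2a, a secreted matrix protein gene, was closest (0.105), followed by Ddr2, a collagen receptor gene (0.123), and Ltbp1, whose product ties latent TGF-beta to the matrix (0.127), against a median of 0.520 over the genes compared. Ltbp1 measured 16.8, 16.9 and 26.3 CPM in OIR-CIH and 32.9, 34.3 and 21.9 CPM in OIR-Norm, with OIR-Norm 3 again under OIR-CIH 3. The likeness is a description over 6 libraries.

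Beyond the 9 members, 88 genes of the pathway were read from the same fit in 6 lists, of which 87 were tested. Of these, 3 were called, all lower in OIR-CIH (Timp1, Tgm2 and Fcrls), beside 0.215% of all genes tested that were called lower. The log2 fold change was below 0 for 64 and above 0 for 23, with a median of -0.19. Across all genes tested, 10114 lay below 0 and 9907 above. The 2 groups did not overlap in 15 of the 87, no larger a share than the 18.4% of all genes tested.

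Genes of ligand latency and activation (17 of 18 tested) centered on a log2 fold change of -0.28 (median), with 13 below 0 and 4 above. None was called by edgeR, DESeq2, limma or limma-voom, with 8 at an unadjusted p under 0.05 in edgeR, all of them lower. Without a filter on low counts, edgeR called 3 (Ltbp1, Ltbp2 and Fbn2). The lowest p belonged to Mmp2, a gelatinase that can release latent ligand, at 23.7, 22.4 and 23.6 CPM in OIR-CIH and 31.4, 30.3 and 27.8 CPM in OIR-Norm. The groups did not overlap, and the log2 fold change was -0.36 (adjusted p = 0.142). Mmp14, which activates pro-MMP2, followed with -0.35 (adjusted p = 0.192). The latent binding protein gene Ltbp2 was at -0.78 (adjusted p = 0.234), and the fibrillin genes Fbn1 and Fbn2, whose microfibrils store latent ligand, were at -0.43 (adjusted p = 0.249) and -0.55 (adjusted p = 0.250). Nrros, which holds latent TGF-beta 1 on microglia, was at -0.38 (adjusted p = 0.300) with groups that did not overlap. Itgb8, the integrin chain with which glia release the active ligand, was at 0.13 (adjusted p = 0.709).

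DESeq2, limma and limma-voom also called 0 genes of the next 3 lists. Accessory receptors (10 genes) had a median of -0.20, with 7 below 0, 2 at an unadjusted p under 0.05 and 0 called by edgeR. Cd109, a membrane co-receptor that dampens the signal, had the lowest p of the list, with a log2 fold change of -0.75 (adjusted p = 0.289), followed by the endocytic adaptor gene Dab2 at -0.60 (adjusted p = 0.321). Eng, the endothelial co-receptor endoglin, was at -0.40 (adjusted p = 0.664). Its values were 8.95, 9.95 and 16.0 CPM in OIR-CIH and 16.3, 23.6 and 6.53 CPM in OIR-Norm, with OIR-Norm holding both the highest and the lowest library.

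SMAD partners and inhibitors (15 genes) were balanced around a median of 0.00, with 8 below 0 and 7 above, 2 at an unadjusted p under 0.05 and 0 called by edgeR. Smad4, the shared partner of SMAD2 and SMAD3, was at -0.01 (adjusted p = 0.966). The co-repressor gene Tgif1 was at -0.47 (adjusted p = 0.250) and Skil, both a repressor and a target of the pathway, at 0.18 (adjusted p = 0.300), each with groups that did not overlap. Smad7, the inhibitory SMAD that the pathway itself induces, was at 0.23 (adjusted p = 0.470).

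The activin branch (12 genes), which uses the same SMAD2 and SMAD3, was also balanced, with 6 genes on each side of 0, a median of -0.01, 2 at an unadjusted p under 0.05 and 0 called by edgeR. Acvr2b, a receptor for activins, came closest to the threshold on p. It measured 21.8, 26.0 and 24.2 CPM in OIR-CIH and 31.7, 34.5 and 32.8 CPM in OIR-Norm, so the groups were separate, and its log2 fold change of -0.46 had an adjusted p of 0.0610. Inhba, which codes for the subunit of activin A, was at -0.75 (adjusted p = 0.347).

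Among the 6 pathway lists, the target genes had the most negative median, -0.40 (26 tested, 21 below 0 and 5 above). In edgeR, 9 had an unadjusted p under 0.05, 8 of them lower and 1, Skil, higher. Skil (0.18), Smad7 (0.23) and Pmepa1 (0.01) are also on the list of SMAD partners and inhibitors. Among the target genes, 2 were called. Timp1, a secreted inhibitor of matrix metalloproteinases, was weakly expressed, at 0.981, 0.901 and 0.979 CPM in OIR-CIH and 2.14, 3.79 and 2.29 CPM in OIR-Norm. All OIR-CIH libraries lay under all OIR-Norm libraries, and Timp1 fell by 1.51 on the log2 scale (SE 0.26, adjusted p = 0.0233). Tgm2, a transglutaminase that crosslinks the matrix and can help to release latent ligand, measured 4.24, 5.30 and 4.15 CPM against 10.1, 12.2 and 7.92 CPM. Its groups were likewise separate, and it fell by 1.14 (SE 0.17, adjusted p = 0.0122).

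Vcan, which codes for the proteoglycan versican, was at -0.73 (adjusted p = 0.0989) with separate groups. Col1a2 was at -0.58 (adjusted p = 0.212) and the fibronectin gene Fn1 at -0.55 (adjusted p = 0.229). The list shares Col1a1, Col1a2 and Col3a1 with the fibroblast and vessel wall markers and Acta2 and Tagln with the mural cell markers, and the part of those cells was not tested. Many of these genes also answer to other signals.

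Microglial genes that depend on TGF-beta (10 tested) had a median of -0.24, with 9 below 0, 5 at an unadjusted p under 0.05 and 1 called. Fcrls, an Fc receptor-like gene of resident microglia, measured 6.59, 5.72 and 6.17 CPM in OIR-CIH and 10.5, 9.16 and 10.2 CPM in OIR-Norm. The groups were separate and Fcrls fell by 0.69 (SE 0.13, adjusted p = 0.0414). Sall1, the microglial transcription factor gene that needs TGF-beta signaling, was at -0.82 (adjusted p = 0.169), and the fractalkine receptor gene Cx3cr1 at -0.65 (adjusted p = 0.142), both with separate groups. Tmem119 was at 0.08 (adjusted p = 0.913). The list of microglia and macrophage markers, which shares Csf1r and Cx3cr1 with these genes, had a median of -0.41 with 12 of 12 below 0, 9 at an unadjusted p under 0.05 and 1 called, the macrophage gene Mpeg1 (log2 fold change -0.72, adjusted p = 0.0131, named after its value was seen).

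**Figure D5:**
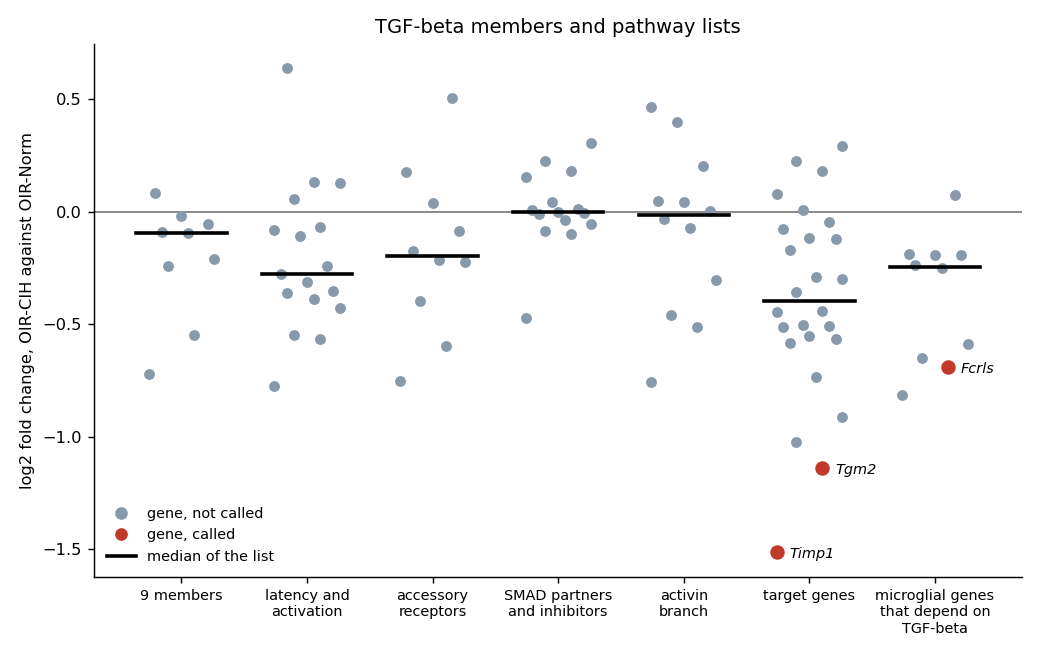
Log2 fold change of OIR-CIH against OIR-Norm (vertical axis) for every tested gene of the 9 members and the 6 pathway lists, with the list median as a bar and the called genes in red. The medians of the SMAD partners and the activin branch lie at 0.00 and -0.01, and the 3 called genes, Timp1, Tgm2 and Fcrls, are all lower in OIR-CIH.

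With 1 library left out, the log2 fold change stayed between -1.67 and -1.21 for Timp1, -1.29 and -0.98 for Tgm2 and -0.75 and -0.64 for Fcrls, while several of these smaller fits no longer made the call. Timp1 was called in 2 of the 6 fits that left out 1 library and not without OIR-CIH 1, 2 or 3 or OIR-Norm 2 (adjusted p = 0.129, 0.0886, 0.0920 and 0.0907). Tgm2 was called in 4 of 6 and not without OIR-CIH 1 or 3 (adjusted p = 0.0969 and 0.0698). Fcrls was called in 1 of 6, without OIR-Norm 2, with adjusted p of 0.0657 to 0.142 in the others. Timp1, Tgm2, Fcrls, Vcan and Cx3cr1 belong to the genes that the study selected on these same libraries, so their direction here is not independent evidence.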

How the data were processed

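Retinal poly(A) RNA of 3 OIR-CIH and 3 OIR-Norm eyes was sequenced from 250 ng of total RNA with a stranded kit. The authors aligned reads with STAR 2.7.9a and deposited raw counts per gene without normalization. Their methods name Ensembl 105, their processing notes GRCm38, and the strand column kept is not given in the sources used here, so no coordinates are printed. Non-coding genes overlap exons of Tgfb2 and Tgfb3 on the opposite strand (at most 13 counts where listed) and of Tgfbr3 on the same strand. Symbols, chromosomes and exon lengths came from GENCODE M21 by gene identifier (32158 of 32285 matched).

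Genes whose counts summed to 10 or more were scaled by TMM and tested with edgeR 4.0.16 (R 4.3.3, quasi-likelihood, two-sided, Benjamini-Hochberg over 20021 genes). Calls took the thresholds of the study, 0.05 for the adjusted p and 0.5 for the absolute log2 fold change. Intervals are 95% Wald intervals from that fit. The fit was tested on simulated counts. Alternatives were DESeq2 1.42.0, limma and limma-voom 3.58.1, other scaling, filters and dispersion settings, a replicate block and leaving out each library. The newer quasi-likelihood method of edgeR was added after seeing the data. Replicates of a group differed by more than sampling noise.

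The members and all lists were chosen with earlier results of these data known. Named genes are the 9 members and, of each list, called genes, up to 5 with the lowest p and 1 or 2 others. Müller glia markers summed to 4746 to 5802 CPM.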

Additional observations from a re-analysis of the deposited data

How the results depend on the processing

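None of the 9 members was called under any of the alternatives (0 of 135 gene and setting pairs), and 4 of these changed sign: Tgfb2 was at 0.03 without OIR-CIH 2 and 0.08 without OIR-Norm 2, and Tgfb3 at 0.02 and 0.04 without the same libraries. Over all leave-one-out fits Tgfb2 ran from -0.130 to 0.0842 and Tgfb3 from -0.196 to 0.0367. The lowest adjusted p of Tgfbr2 was 0.0843, without a filter on low counts, and the highest 0.636. Over all genes, DESeq2 called 135 (101 lower, 34 higher) and the fit without a filter 213 (153 lower, 60 higher, of 24439 tested), and leaving out single libraries gave 35 (without OIR-CIH 1) to 104 (without OIR-Norm 3). Of the 87 pathway genes, DESeq2 called 6 (Col1a2, Cx3cr1 and Vcan in addition), the fit without a filter 12 (Bgn, Fbn2, Fn1, Ltbp1, Ltbp2 and Sall1 besides those of DESeq2) and the leave-one-out fits 0 (without OIR-CIH 1) to 5 (without OIR-Norm 3). The cause was not tested. Limma on log2(CPM + 0.5) and the block did not call Fcrls (adjusted p = 0.0549 and 0.0547), nor limma-voom Timp1 (0.0655). Leaving out single libraries moved the log2 ratio of Tgfb1 to Tgfb2 between -0.34 and -0.14, of Tgfb3 to Tgfb2 between -0.14 and 0.04, of Tgfbr1 to Tgfbr2 between 0.45 and 0.93 and of Smad3 to Smad2 between -0.27 and -0.06.

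The replicate numbers did not pair the libraries: deviations from the group means correlated at 0.16, 0.14 and -0.24 for numbers 1, 2 and 3 over 14800 genes. Adding the replicate number as a block gave 84 called genes, which included 60 of the 63, 0 members and 2 pathway genes. Tgfb1, Tgfbr2 and Tgfbi had at most 250 counts per library, and their levels varied by 23.2%, 41.8% and 41.3% over the 6 libraries (SD over mean).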
